A study of Mus musculus with 27 samples.

Results

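Jam2, Col25a1, Mmp17, Spp1, Bnc2, Satb1 and Thy1 are genes used to recognise retinal ganglion cells (RGCs) or particular types of them. They were taken by symbol from the table of estimated read counts, 7 of its 30735 genes, with the transcripts of each gene summed, and all 7 had enough reads to be tested in every comparison. RGCs are the output neurons of the retina, and their many types differ in dendrites, light response, brain targets and the proteins they make. A type marker is usually shared with other cells: Spp1 (osteopontin, a secreted glycoprotein) marks the large alpha RGCs and is also made by macrophages and microglia, and Thy1 is a surface protein of RGCs and of T lymphocytes. Jam2 (the adhesion molecule JAM-B) marks a direction-selective OFF type, while Mmp17, Col25a1 and Satb1 have been described in ON-OFF direction-selective RGCs.

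The study, in C57Bl/6 mice, placed alkaline phosphatase (AP) at the locus of Brn3a (Pou4f1) or Brn3b (Pou4f2), a pair of POU domain transcription factors of RGCs. Beads with an antibody against AP separated dissociated retinal cells into a bound AP-positive fraction (RGC below) and the unbound supernatant (SN). Every animal used for the retinal libraries carried an AP allele. HET stands for Brn3a AP/WT or Brn3b AP/WT, with an intact second allele, and KO for Brn3a AP/KO or Brn3b AP/KO. The 12 RGC libraries fall into 6 groups of 2: HET and KO of either locus at postnatal day 3 (P3), and HET and KO of the Brn3b locus only at embryonic day 15 (E15). The 6 SN libraries, 1 per group, were pooled by age into 4 at P3 and 2 at E15. No label says that libraries came from separate animals or litters, so the p-values below measure the spread between libraries, which may be technical. Within SN that spread also covers genotype and, at P3, locus.

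Retinal libraries held 28905675 to 37394655 estimated counts. Pou4f1 stood at 486 and 444 counts per 1000000 counts (CPM) in Brn3a HET RGC and at 16.7 and 11 CPM in Brn3a KO RGC. The lower of these KO values belongs to replicate 2, whose title names Brn3a while its genotype entry names Brn3b. That library held 268 CPM of Pou4f2, against 21.0 and 18.6 CPM in Brn3b KO RGC at P3. Labels conflict elsewhere too: the source names of all 12 Brn3b libraries give Brn3a, and those of all 6 E15 libraries give P3, while their titles, genotype and age entries match each other. Groups follow the titles. Brn3b HET RGC held 190 and 289 CPM of Pou4f2 at P3 against 21.0 and 18.6 CPM in Brn3b KO, and 325 and 224 CPM against 65.7 and 63.1 CPM at E15. The RGC fractions were not pure. Summed over 18 microglia and macrophage genes, P3 RGC libraries held 1355 to 5136 CPM and P3 SN libraries 35.2 to 63.3 CPM. The 18 pan-RGC markers (neurofilaments, Rbpms, Slc17a6 and others) summed to 10308 to 11111 CPM in Brn3a HET RGC and 4688 to 6731 CPM in Brn3b HET RGC at P3, against 1056 to 1844 CPM in SN. Against SN at P3, 14 of 14 progenitor and Müller glia, 9 of 12 amacrine and 5 of 12 photoreceptor markers were lower in Brn3a HET RGC, with 1 photoreceptor marker higher. Astrocyte markers went both ways, 2 of 7 higher (Gfap by 3.83 and S100b by 3.35 on the log2 scale) and 2 lower, and of 14 dissociation stress genes 9 were higher and 2 lower. In bulk libraries like these, fewer cells of a type and less RNA per cell cannot be told apart.

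The file places Thy1 on chromosome 9 (44043384 to 44048579, plus strand, GRCm38), Jam2 on chromosome 16 (84774123 to 84825928, plus) and Mmp17 on chromosome 5 (129584169 to 129608875, plus). Spp1 lies on the same chromosome 5 (104435118 to 104441050, plus), Col25a1 on chromosome 3 (130180891 to 130599877, plus), Bnc2 on chromosome 4 (84275095 to 84675275, minus) and Satb1 on chromosome 17 (51736187 to 51833290, minus). The values cover the transcripts of each gene and do not separate exons from untranslated regions. One other gene of the file, Gm12421, overlapped a member (Bnc2, on the same strand) and was listed at 0 CPM.

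Promoter sequence was at hand for 4 of the 7 members, from RefSeq on GRCm38.p6, and the 250 bases before the annotated start are shown for Col25a1 and Spp1. The Col25a1 window (chr3:130180595-130180844, plus strand) is shown because its letters hold the POU-type octamer variant GCATAAT, read on the minus strand as ATTATGC and set in capitals, at 157 and 71 bases before the start. The Spp1 window (chr5:104434861-104435110, plus strand) is shown because it holds 1 AACCACA, a Runx-type motif and here in capitals, at 129 bases before the start.
Col25a1: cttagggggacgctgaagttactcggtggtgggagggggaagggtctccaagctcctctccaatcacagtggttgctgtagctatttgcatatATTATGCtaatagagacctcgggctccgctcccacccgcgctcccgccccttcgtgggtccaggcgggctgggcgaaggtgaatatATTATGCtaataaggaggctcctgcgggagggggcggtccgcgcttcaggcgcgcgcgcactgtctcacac
Spp1: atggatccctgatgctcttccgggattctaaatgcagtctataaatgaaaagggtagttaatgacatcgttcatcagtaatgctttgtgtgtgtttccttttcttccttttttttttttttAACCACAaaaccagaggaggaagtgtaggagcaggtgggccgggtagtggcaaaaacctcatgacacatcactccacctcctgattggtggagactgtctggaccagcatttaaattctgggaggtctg
On either strand, GCATAAT was found in 440 of 32851 promoter windows of this length (1.34%), and 8 windows (0.0244%) held it 2 or more times. AACCACA was found in 4.4% of the windows and the homeodomain-type motif TAATTA in 4.84%, among them 1 Bnc2 window and a downstream Spp1 window. None of these motifs was found in the Satb1 windows. The motifs were picked after the letters had been read, and a match describes letters, not a bound site.

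Thy1, the surface protein that stands for ganglion cells as a whole, was highest in the Brn3a fraction. Its level was 690 and 584 CPM in Brn3a HET RGC, 506 and 393 CPM in Brn3a KO RGC, 142 and 207 CPM in Brn3b HET RGC and 47.4 and 68.5 CPM in Brn3b KO RGC at P3. The P3 SN libraries held 21.1 CPM (Brn3a HET), 17.0 CPM (Brn3a KO), 57.6 CPM (Brn3b HET) and 40.1 CPM (Brn3b KO). At P3 the RGC groups therefore stood in the order Brn3a HET, Brn3a KO, Brn3b HET, Brn3b KO without overlap, and the last of them overlapped SN. At E15 Thy1 was near 0 everywhere: 2.58 and 0.489 CPM in Brn3b HET RGC, 0.919 and 0.275 CPM in Brn3b KO RGC, and 2.51 and 0.992 CPM in SN. The 8 T lymphocyte genes summed to 2.32 to 11.4 CPM over all groups, with Cd3g and Cd2 at 0 in every library. The file has 1 Thy1 transcript, Thy1-001.

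Jam2, which lets cells adhere at junctions, was high in nearly all P3 libraries. Brn3b HET RGC at P3 held 355 and 322 CPM and Brn3b KO RGC 303 and 228 CPM, above 151 and 170 CPM in Brn3a HET RGC and 72.3 and 165 CPM in Brn3a KO RGC. The P3 SN libraries, in the order given for Thy1, held 242, 266, 178 and 213 CPM, above both Brn3a groups and below Brn3b HET. At E15 the RGC values were 52.8 and 70.1 CPM (HET) and 60.0 and 68.8 CPM (KO), below 132 and 92.8 CPM in SN. Photoreceptor markers moved with these levels. The sum of 12 photoreceptor genes was 874 to 892 CPM in Brn3a HET RGC, 2390 to 3296 CPM in Brn3b HET and 2875 to 4213 CPM in Brn3b KO RGC, 2321 to 2764 CPM in P3 SN, and 277 to 375 CPM in E15 RGC. Within Brn3a KO RGC the sum was 401 CPM in replicate 1, the library with 72.3 CPM of Jam2, and 1611 CPM in replicate 2. Over the 18 libraries, which share cells of both kinds in unknown proportions, Jam2 and this sum had a Pearson r of 0.961 on the log2(CPM + 1) scale, and Jam2 and the sum of 14 endothelial and mural genes, another source of Jam2, 0.554. The part of either cell type in the Jam2 values was not tested. Most Jam2 reads (96.6%) were assigned to transcript Jam2-001.

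Col25a1, a collagen that stays anchored in the cell membrane, was highest in the Brn3a fraction. Brn3a HET RGC held 43.5 and 45.8 CPM and Brn3a KO RGC 64.6 and 63.1 CPM. In Brn3b RGC at P3 it stood at 7.93 and 15.3 CPM (HET) and 3.79 and 6.70 CPM (KO). The P3 SN libraries held 6.06, 5.64, 2.45 and 3.09 CPM, and overlapped Brn3b KO but neither Brn3a group. At E15 the levels were 5.23 and 6.22 CPM in Brn3b HET RGC, 3.20 and 2.99 CPM in Brn3b KO RGC, and 1.81 and 4.11 CPM in SN. Of the Col25a1 reads, 81.0% were assigned to Col25a1-001 and 17.9% to Col25a1-004, a transcript annotated as a target of nonsense-mediated decay.

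Mmp17, a matrix metalloproteinase held to the membrane by a lipid anchor, did not separate the fractions. At P3 it stood at 11.7 and 12 CPM in Brn3a HET, 8.02 and 9.63 CPM in Brn3a KO, 10.6 and 21.0 CPM in Brn3b HET and 7.19 and 15.5 CPM in Brn3b KO RGC. The SN libraries of that age held 10.8, 9.33, 17.2 and 11.9 CPM, within the range of the RGC libraries. E15 values were 2.82 and 3.78 CPM in Brn3b HET RGC, 5.07 and 4.49 CPM in Brn3b KO RGC, and 3.15 and 5.84 CPM in SN, all under the lowest P3 value. In both Brn3b groups at P3 replicate 2 was the higher library.

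Spp1 was almost absent from SN. It stood at 130 and 225 CPM in Brn3a HET, 146 and 227 CPM in Brn3a KO, 99.3 and 86.4 CPM in Brn3b HET and 72.9 and 51.3 CPM in Brn3b KO RGC at P3. E15 RGC held 11.5 and 7.66 CPM (HET) and 5.29 and 3.21 CPM (KO). The 4 P3 SN libraries held 15 Spp1 counts together (0, 0.0851, 0.368 and 0 CPM), and both E15 SN libraries were at 0 counts. Spp1 and the microglia markers were high in the same libraries. The microglia sum was 4182 to 4683 CPM in Brn3a HET, 4362 to 5136 CPM in Brn3a KO, 2875 to 3498 CPM in Brn3b HET and 1355 to 1742 CPM in Brn3b KO RGC at P3, and 898 to 1335 CPM in E15 RGC. Spp1 equalled 2.47% to 5.2% of that sum in the 8 P3 RGC libraries and 0.318% to 1.16% in the 4 E15 ones, while Trem2 and Lyz2 were at 0 in E15 SN. The r of Spp1 with the sum was 0.946 over the 18 libraries, and the part of microglia in the Spp1 values was not tested. Spp1-001 took 83.4% of the Spp1 reads and Spp1-003 12%. In E15 RGC, with 105 to 331 estimated Spp1 counts a library, the share of Spp1-001 ran from 9.27% to 72.4%. In P3 RGC, with 1946 to 8045 counts, it ran from 75.4% to 89.0%. Whether the shares differed between ages was not tested.

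Bnc2, a zinc finger protein of the nucleus, resembled Col25a1. It stood at 21.7 and 18.6 CPM in Brn3a HET and 43.5 and 30.0 CPM in Brn3a KO RGC, and at 1.35 and 3.87 CPM (HET) and 1.38 and 2.19 CPM (KO) in Brn3b RGC at P3. The P3 SN libraries held 1.92, 0.482, 2.24 and 1.56 CPM and overlapped both Brn3b groups. At E15 the Brn3b HET libraries differed from each other, with 7.77 and 1.92 CPM, and stood above 0.507 and 0.275 CPM in Brn3b KO RGC and 0.530 and 0.624 CPM in SN. The E15 KO values rest on 16 and 9 estimated counts. Fibroblast and mesenchyme markers, genes of cells that also express Bnc2, summed to 18.5 to 89.6 CPM over all groups, and Lum was at 0 in every library except those of E15 SN. Bnc2 and this sum had an r of −0.163 over the 18 libraries. Bnc2 reads were split between Bnc2-002 (43.0%), Bnc2-007 (34.1%) and Bnc2-004 (11%).

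Satb1, which organises chromatin loops, had the narrowest range of the members. The P3 RGC values were 146 and 143 CPM in Brn3a HET, 111 and 113 CPM in Brn3a KO, 94.4 and 106 CPM in Brn3b HET and 116 and 110 CPM in Brn3b KO. SN held 128, 119, 129 and 116 CPM at P3 and 122 and 98.5 CPM at E15. The E15 RGC values were 116 and 105 CPM (HET) and 90.4 and 88.3 CPM (KO). Brn3a HET was above every other group and Brn3b KO at E15 below every other group, and the 6 groups between formed an overlapping series. Its reads were spread over Satb1-005 (31.7%), Satb1-004 (22.7%), Satb1-001 (17.3%) and a transcript of 6194 bases (19.4%).

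**Figure D1:**
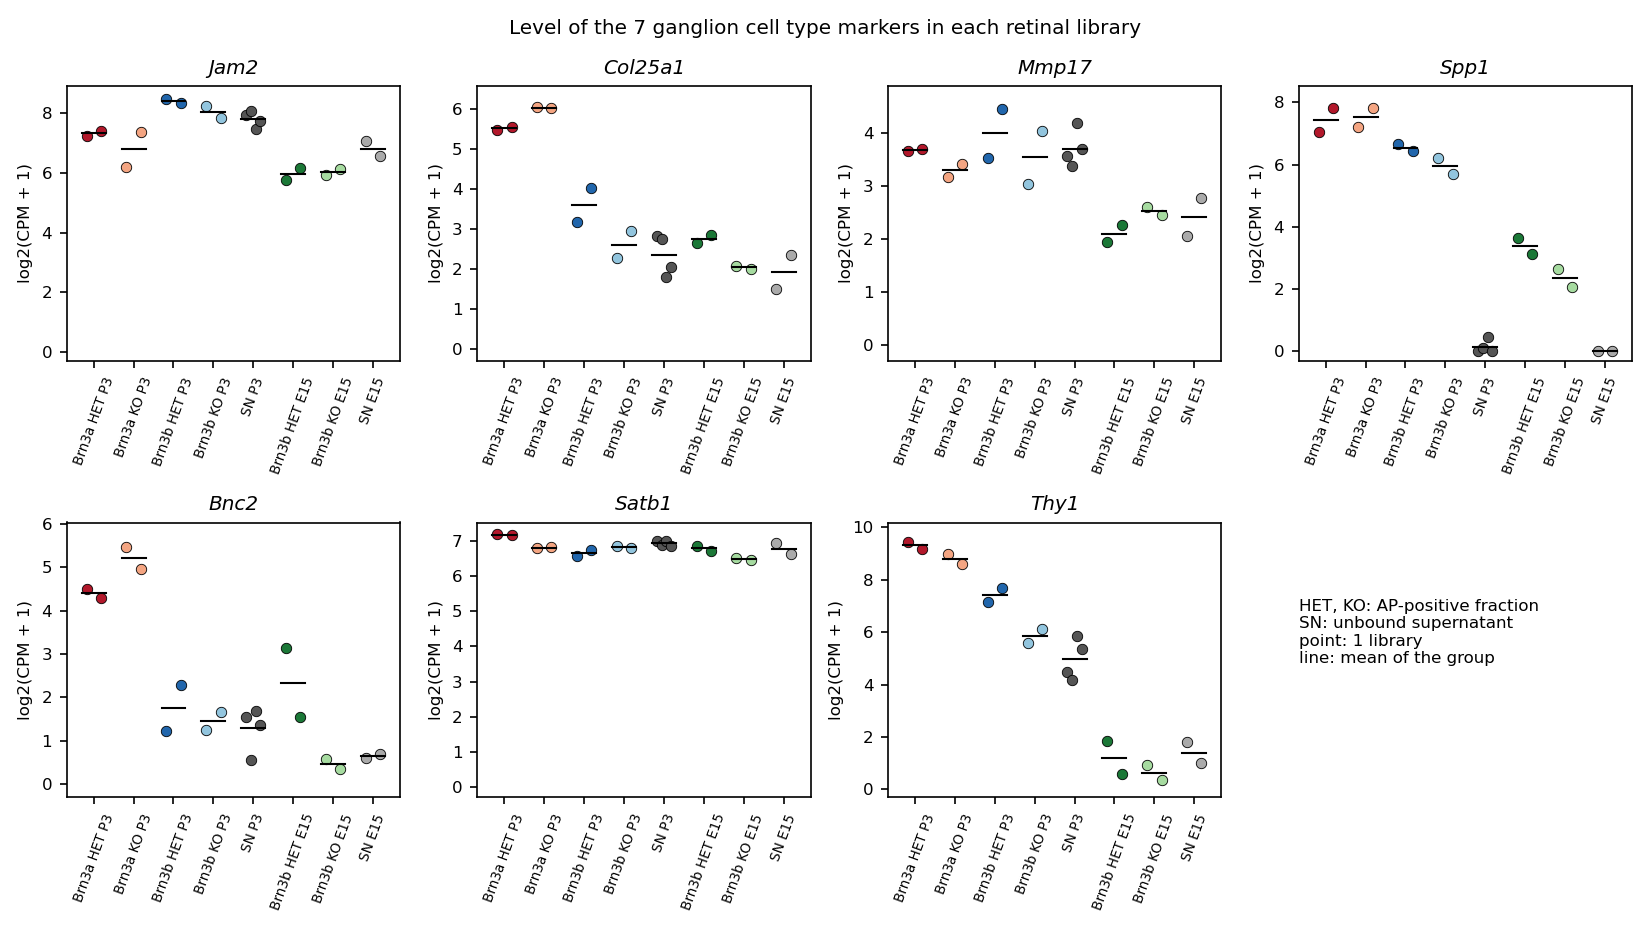
Level of each marker in each of the 18 retinal libraries, as log2(CPM + 1) on the vertical axis, by group on the horizontal axis (points are libraries, lines are group means; vertical ranges differ between genes). Col25a1 and Bnc2 are highest in both Brn3a groups, Jam2 in Brn3b HET at P3, Spp1 is at or near 0 in all SN libraries, and Thy1 is near 0 in all E15 libraries.

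Compared per transcript length, in length-corrected shares of 1000000 transcripts (TPM), the order of the members differed between fractions. In Brn3a HET RGC the mean level was 679 TPM for Thy1, 232 for Spp1, 70.2 for Jam2 and 55.3 for Satb1, each without overlap with the next. Col25a1 (14 TPM) and Bnc2 (13.4 TPM) overlapped, and Mmp17 was last at 5.21 TPM. In Brn3b HET RGC at P3 Thy1 (189 TPM) and Jam2 (153 TPM) overlapped, followed by Spp1 (122 TPM) and Satb1 (42.3 TPM). Jam2 led in Brn3b KO RGC at P3 with 123 TPM and in P3 SN with 115 TPM. At E15 Satb1 led the Brn3b HET fraction with 41.9 TPM and Thy1 was among the lowest with 1.43 TPM.

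The comparison of HET RGC with SN asks which markers were more abundant in the AP-positive cells than in the pooled unbound cells of that age. At P3 the pool joins SN of both loci, HET and KO. Thy1 stood at 21.1 (HET) and 17.0 CPM (KO) in Brn3a SN, and at 57.6 and 40.1 CPM in Brn3b SN. In the same order Pou4f1 stood at 9.05, 1.56, 65.4 and 41.9 CPM, and Col25a1 at 6.06, 5.64, 2.45 and 3.09 CPM. Differences between SN libraries by locus were not tested. In Brn3a HET RGC at P3, 4 of the 7 members were higher than in SN and none was lower (edgeR quasi-likelihood test with Benjamini-Hochberg adjustment over 16954 genes, called at an adjusted p under 0.05, as throughout). Of all genes tested, 28.8% were called higher and 27.7% lower, 56.5% in all, so a call by itself was common here. Spp1 was higher by 10.65 ± 0.59 (log2 fold change ± SE of the fit, adjusted p = 2.21e-08), Thy1 by 4.23 ± 0.50 (adjusted p = 9.57e-06), Bnc2 by 3.70 ± 0.56 (adjusted p = 7.79e-05) and Col25a1 by 3.37 ± 0.38 (adjusted p = 5.58e-06). These folds were 18.8 for Thy1, 13.0 for Bnc2 and 10.3 for Col25a1. Jam2 (−0.49 ± 0.27, adjusted p = 0.141), Mmp17 (−0.06 ± 0.36, adjusted p = 0.907) and Satb1 (0.24 ± 0.10, adjusted p = 0.0571) did not pass. The median log2 fold change was 3.37 over the members and −0.03 over all genes. Without the Brn3b HET SN library the Spp1 value was 12.43. Satb1 was called higher with DESeq2 (adjusted p = 0.0117), with RLE size factors (adjusted p = 0.0242) and in a fit of only the compared groups (adjusted p = 0.0356), and that last fit called Jam2 lower (−0.50, adjusted p = 0.0376). All 18 pan-RGC markers and all 18 microglia markers were also called higher.

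In Brn3b HET RGC at P3, 3 members were higher than in the same SN libraries and 1 was lower, beside 19.6% and 13.6% of all genes (33.2% in all). Spp1 was higher by 9.71 ± 0.58 (adjusted p = 6.65e-08), Thy1 by 2.36 ± 0.48 (adjusted p = 0.00216) and Col25a1 by 1.42 ± 0.38 (adjusted p = 0.0101). Satb1 was lower, by a small amount (−0.29 ± 0.10, adjusted p = 0.0412). Bnc2 (0.75 ± 0.58, adjusted p = 0.348), Jam2 (0.59 ± 0.26, adjusted p = 0.0986) and Mmp17 (0.36 ± 0.35, adjusted p = 0.470) did not pass. The member median was 0.75 and that of all genes 0.02. Without Brn3b HET replicate 2 the Col25a1 value was 0.84 (adjusted p = 0.249) and the Satb1 value −0.41 (adjusted p = 0.0533), and without replicate 1 the Satb1 value was −0.21 (adjusted p = 0.286). With RLE size factors Satb1 had an adjusted p of 0.0572. A fit of only the compared groups called Jam2 higher (0.54, adjusted p = 0.0339), and without the Brn3b HET SN library the Spp1 value was 11.47. Beside the members, 17 of 18 microglia, 17 of 18 pan-RGC and 8 of 14 dissociation stress genes were higher, and 12 of 14 progenitor and Müller glia and 4 of 12 amacrine markers lower.

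At E15, 2 members were higher in Brn3b HET RGC than in SN and none was lower, beside 9.35% of all genes higher and 3.84% lower (13.2% in all). Spp1 was at least 227-fold higher, counted against a floor of 3 counts over both SN libraries (adjusted p = 7.01e-05). Brn3b KO RGC at E15 stood at least 101-fold above the same floor. Bnc2 was higher by 3.06 ± 0.75 (adjusted p = 0.0183). Without Brn3b HET replicate 1 the Bnc2 value was 1.74 (adjusted p = 0.254), without the Brn3b HET SN library 2.96 (adjusted p = 0.159), and in a fit of these groups alone 3.10 (adjusted p = 0.133). Thy1 (−0.19 ± 0.75, adjusted p = 0.895), Satb1 (0.00 ± 0.12, adjusted p = 1), Col25a1 (0.95 ± 0.47, adjusted p = 0.176), Jam2 (−0.87 ± 0.31, adjusted p = 0.0763) and Mmp17 (−0.45 ± 0.43, adjusted p = 0.498) did not pass. Without Brn3b HET replicate 2 the Bnc2 value was 3.76 and kept its call. DESeq2 called Jam2 lower (−0.87, adjusted p = 0.0266). Of the 18 pan-RGC markers, 15 were called higher at this age, while Thy1 was not. Higher too were 16 of 18 microglia and 8 of 14 dissociation stress genes, and 6 of 12 amacrine and 5 of 12 photoreceptor markers were lower.

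Other markers of RGC types gave a mixed picture beside the members. Of 29 tested, 18 were higher and 4 lower in Brn3a HET RGC than in SN, among the higher Tbr1 (4.24 ± 0.33), a T-box factor of J-RGCs and other OFF types, and Calb2 (3.81 ± 0.39), the calcium-binding protein calretinin. In Brn3b HET RGC, 15 were higher and 2 lower at P3 and 8 higher and 1 lower at E15, with Tbx20 higher by 3.86 ± 0.38 and 3.18 ± 0.48 and Eomes, a factor of melanopsin RGCs, by 1.84 ± 0.25 and 2.11 ± 0.31. Among 23 tested relatives and binding partners of the members, 10 were higher and 7 lower in Brn3a HET RGC, 7 and 3 in Brn3b HET RGC at P3, and 6 and 1 at E15. F11r (JAM-A, a relative of Jam2) was higher in all 3 comparisons, by 4.46 ± 0.25, 4.37 ± 0.25 and 2.60 ± 0.31. Timp2, an inhibitor of metalloproteinases, was higher by 1.81 ± 0.11 in Brn3a HET and 1.39 ± 0.11 in Brn3b HET RGC at P3. Itgb3, an integrin subunit that binds osteopontin, was higher in Brn3b HET RGC by 4.69 ± 0.44 at P3 and 4.26 ± 0.67 at E15. The microglia list had median log2 fold changes of 8.31 (Brn3a HET), 7.77 (Brn3b HET, P3) and 7.67 (E15) against SN. The part of other cells in the values of these relatives and partners was not tested.

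The 2 fractions at P3 were then compared with each other. Between Brn3b HET and Brn3a HET RGC, 3 members were lower in Brn3b and none was higher, beside 1.82% of all genes lower and 2.03% higher (3.85% in all, 16673 genes tested in the fit of RGC libraries). Col25a1 was lower by 3.85-fold (−1.94 ± 0.32, adjusted p = 0.0204), Bnc2 by 7.71-fold (−2.95 ± 0.65, adjusted p = 0.0436) and Satb1 by 1.44-fold (−0.53 ± 0.11, adjusted p = 0.0405). Thy1 (−1.86 ± 0.47, adjusted p = 0.0540), Jam2 (1.08 ± 0.32, adjusted p = 0.0720), Spp1 (−0.94 ± 0.34, adjusted p = 0.110) and Mmp17 (0.42 ± 0.39, adjusted p = 0.504) did not pass. The member median was −0.94, against 0.01 over all genes. Pan-RGC markers had a median of −0.92 and microglia markers one of −0.48. The medians were 1.66 for photoreceptor, 1.18 for amacrine, 1.18 for progenitor and Müller glia and 1.16 for endothelial and mural markers. The part of other cells in the member values was not tested. Of the marker lists, 4 of 12 amacrine and 2 of 12 photoreceptor genes were higher in Brn3b HET, and 2 of 18 microglia, 2 of 14 dissociation stress, 1 of 7 astrocyte and 1 of 18 pan-RGC genes were lower. These calls rest on 2 libraries a side: the adjusted p of Bnc2 ran from 0.0692 to 0.283 and that of Satb1 from 0.0726 to 0.265 when any 1 of the 4 libraries was left out. Col25a1 kept its call only without Brn3b HET replicate 2, with adjusted p of 0.110, 0.124 and 0.129 without each of the others. Without Brn3b HET replicate 2 the Bnc2 value was −3.93. DESeq2 and a fit of these groups alone each called 6 members, Thy1, Jam2 and Spp1 in addition. Without a low-count filter Thy1 and Jam2 were added, and in a fit of all 18 libraries Jam2 (adjusted p = 0.0466).

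Among the KO libraries the same contrast called more genes. In Brn3b KO against Brn3a KO RGC at P3, 4 members were lower and 1 was higher, beside 19.2% and 16.7% of all genes (36% in all). Bnc2 was lower by 20.6-fold (−4.36 ± 0.70, adjusted p = 0.00201), Col25a1 by 12.2-fold (−3.60 ± 0.34, adjusted p = 0.00055), Thy1 by 7.75-fold (−2.96 ± 0.49, adjusted p = 0.00233) and Spp1 by 2.98-fold (−1.58 ± 0.34, adjusted p = 0.00715). Jam2 was higher by 2.26-fold (1.18 ± 0.32, adjusted p = 0.0176). Satb1 (0.02 ± 0.11, adjusted p = 0.919) and Mmp17 (0.37 ± 0.39, adjusted p = 0.491) did not pass. Over all genes the median was 0.01 and over the members −1.58. Beside these values, all 18 pan-RGC markers and 16 of 18 microglia markers were lower, and 10 of 14 progenitor and Müller glia, 9 of 12 amacrine and 6 of 12 photoreceptor markers were higher, in the Brn3b KO libraries. Of the 14 dissociation stress genes 7 were lower and 2 higher. The part of other cells in the member values was not tested. The Jam2 value was 0.70 (adjusted p = 0.0721) without Brn3a KO replicate 1 and 0.94 (adjusted p = 0.109) without Brn3b KO replicate 1, and it did not pass in a fit of only the compared groups (1.16, adjusted p = 0.0783). Without Brn3a KO replicate 2, whose labels conflict, all 5 calls remained, with Jam2 at 1.86. The Spp1 value was −1.34 (adjusted p = 0.0535) without Brn3b KO replicate 2.

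Markers of other RGC types also differed between the fractions. Of 29 tested, 7 were lower and 3 higher in Brn3b HET than in Brn3a HET RGC. Tbx20 (5.74 ± 0.59) and Eomes (3.89 ± 0.38) were higher and Tusc5 (−4.43 ± 0.65) and Serpine2 (−1.15 ± 0.16) lower. Among the KO libraries 12 were lower and 5 higher, including Serpine2 (−1.76 ± 0.16), Cdh6 (−2.08 ± 0.33), a cadherin of direction-selective RGCs, and Cdh10 (−1.71 ± 0.25). Of the relatives and partners, 1 was higher and none lower between the HET fractions, and 3 were higher and 8 lower between the KO fractions. Timp2 (−1.27 ± 0.14) and the osteopontin-binding integrin subunit Itga9 (−2.10 ± 0.27) were among the lower.

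**Figure D2:**
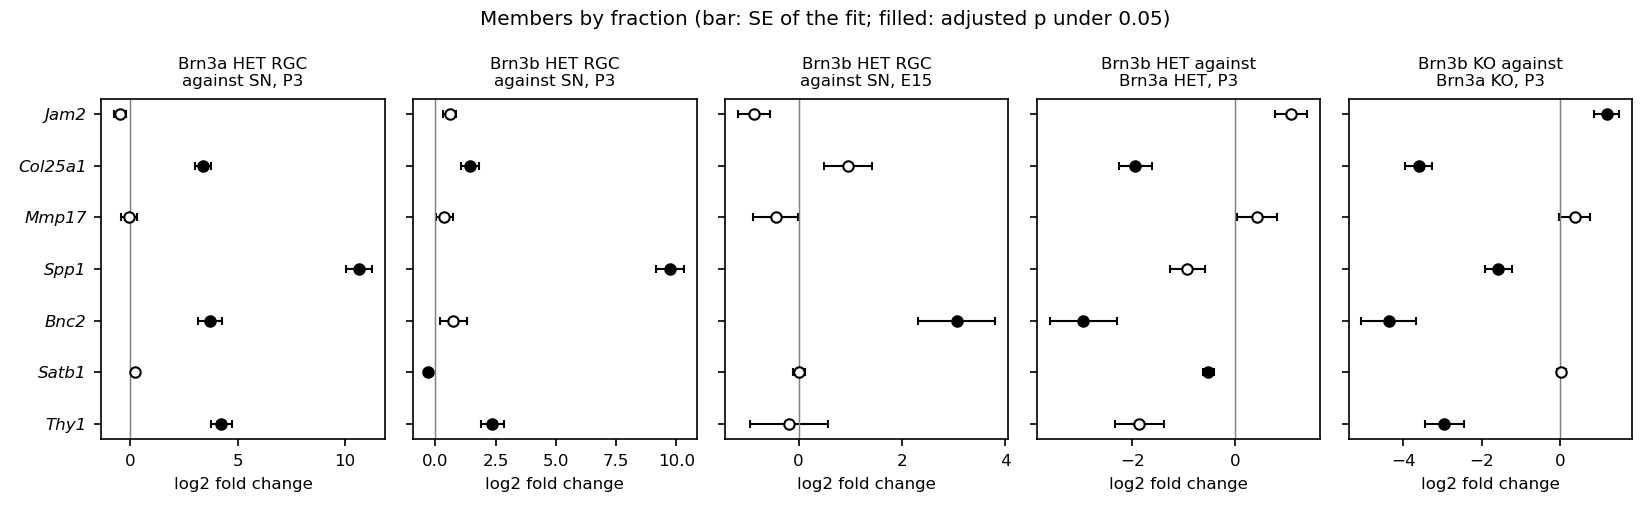
Log2 fold change (horizontal axis, bars are the SE of the fit, scales differ between panels) of each marker in HET RGC against SN and between the Brn3b and Brn3a fractions; filled points have an adjusted p under 0.05. Spp1 against E15 SN, which was at 0 counts, is left out. Col25a1 and Bnc2 lie below 0 in both comparisons of Brn3b with Brn3a, and Jam2 lies above 0.

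Loss of the second allele was examined as KO against HET RGC. For Brn3a at P3 no member passed, beside 0.018% of all genes (0.012% higher and 0.006% lower, 3 of 16673 in all, with 432 at an unadjusted p under 0.05), and DESeq2 called no member either. Every member had an adjusted p of 1. Satb1 (−0.36 ± 0.11) was the 1 member below 0.05 before adjustment in edgeR's quasi-likelihood test. Its KO and HET libraries did not overlap, nor did those of Col25a1, Bnc2, Thy1 and Mmp17, as was so for 30.9% of all genes. Bnc2 (0.88 ± 0.60) and Col25a1 (0.52 ± 0.31) had higher means in KO, and Thy1 (−0.49 ± 0.46), Jam2 (−0.43 ± 0.31) and Mmp17 (−0.42 ± 0.39) lower means. Spp1 stood at 0.07 ± 0.33. These values did not pass at 2 libraries a side. None of 29 other type markers passed, though Tusc5 (−4.47 ± 0.66, adjusted p = 0.200) and the forkhead factor Foxp2 (−2.42 ± 0.40, adjusted p = 0.236) had large differences. Without KO replicate 2 the Jam2 value was −1.12 (adjusted p = 0.666) and that of Bnc2 1.14 (adjusted p = 1).

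For Brn3b at P3 no member passed either, beside 3.15% of all genes lower and 0.264% higher (3.41% in all, 3191 genes at an unadjusted p under 0.05). Thy1 had 3.00-fold lower means in KO (−1.58 ± 0.47, adjusted p = 0.103) and Col25a1 2.2-fold lower means (−1.14 ± 0.32, adjusted p = 0.0898). For both genes, as for Spp1 and Jam2, every KO library was below every HET library, and for Satb1 every KO library was above. Such a lack of overlap, in either direction, was found for 51.7% of all genes. The unadjusted p of Thy1 and Col25a1 from edgeR were 0.00724 and 0.00551. The other members stood at −0.57 ± 0.34 (Spp1), −0.54 ± 0.64 (Bnc2), −0.47 ± 0.39 (Mmp17), −0.34 ± 0.31 (Jam2) and 0.18 ± 0.11 (Satb1), with adjusted p between 0.389 and 0.693. The member median was −0.54, against 0.01 over all genes. DESeq2 called Col25a1 (−1.11, adjusted p = 0.0150) and a fit without a low-count filter called Thy1 (−1.58, adjusted p = 0.0407). Without HET replicate 1 Col25a1 passed (−1.53, adjusted p = 0.0303). Of the pan-RGC markers 12 of 18 were called lower, and so were 12 of 18 microglia markers, while 2 of 12 amacrine markers were higher. Among other type markers 5 of 29 were lower and none higher, including Tbx20 (−4.02 ± 0.53), Tbr1 (−2.46 ± 0.37) and Irx2 (−2.67 ± 0.42). Of the relatives and partners, Timp2 (−0.84 ± 0.14) and Itgb3 (−1.64 ± 0.29) were among 3 lower genes and Mmp14, a membrane-type metalloproteinase like Mmp17, was the 1 higher gene (1.02 ± 0.24).

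For Brn3b at E15, 1 member passed, beside 1.18% of all genes lower and 0.666% higher (1.85% in all). Bnc2 was 12.3-fold lower in KO (−3.62 ± 0.75, adjusted p = 0.0433). The call was lost in a fit of these groups alone (−3.61, adjusted p = 0.274). Without HET replicate 2 the value was −4.29 and passed. The call was also lost without HET replicate 1 (−2.26, adjusted p = 0.187), without KO replicate 1 (−4.11, adjusted p = 0.150) and without KO replicate 2 (−3.24, adjusted p = 0.296). Spp1 (−1.18 ± 0.37, adjusted p = 0.193), Col25a1 (−0.89 ± 0.33, adjusted p = 0.304), Satb1 (−0.30 ± 0.11, adjusted p = 0.292) and Thy1 (−1.37 ± 0.72, adjusted p = 0.519) had lower means in KO without passing. Of these, Spp1, Col25a1 and Satb1 had KO libraries all below the HET libraries, as did Bnc2. The KO libraries of Mmp17 were all above (39.4% of all genes did not overlap in either direction). Mmp17 (0.53 ± 0.41, adjusted p = 0.705) and Jam2 (0.07 ± 0.31, adjusted p = 0.977) did not pass, and the medians were −0.89 over the members and −0.03 over all genes. DESeq2 called Spp1 in addition (−1.17, adjusted p = 0.0280). Other type markers changed in both directions, 5 lower and 2 higher of 29, with Eomes (−3.70 ± 0.37), Tbx20 (−4.51 ± 0.55) and Irx2 (−3.03 ± 0.41) lower and Serpine2 higher (1.00 ± 0.16). None of the 18 microglia markers passed, 6 of the 18 pan-RGC markers were lower and 5 of 12 amacrine markers were higher.

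No member passed the edgeR test for a KO effect that differed between ages or between loci, where 0.192% and 0.012% of all genes were called. Between P3 and E15 the largest differences in the Brn3b effect were those of Bnc2 (3.09 ± 0.98, adjusted p = 0.321) and Mmp17 (−1.0 ± 0.56, adjusted p = 0.517). Between Brn3b and Brn3a at P3 they were those of Col25a1 (−1.66 ± 0.45, adjusted p = 0.240) and Bnc2 (−1.42 ± 0.88, adjusted p = 0.746). Members with an unadjusted p under 0.05 numbered 2 in each contrast, Bnc2 and Satb1 in the first and Col25a1 and Satb1 in the second. DESeq2 called 1 (Bnc2, adjusted p = 0.0402) and 2 (Col25a1, adjusted p = 0.0306, and Satb1, adjusted p = 0.0285).

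The ages were compared in the Brn3b fraction and in SN. In Brn3b HET RGC 5 members were higher at P3 than at E15 and none was lower, beside 16.6% and 12.3% of all genes (28.8% in all). Thy1 was 114-fold higher (6.84 ± 0.62, adjusted p = 0.000145), Spp1 9.73-fold (3.28 ± 0.37, adjusted p = 0.000367), Jam2 5.53-fold (2.47 ± 0.33, adjusted p = 0.000722), Mmp17 4.82-fold (2.27 ± 0.42, adjusted p = 0.00354) and Col25a1 2.04-fold (1.03 ± 0.32, adjusted p = 0.0386). Bnc2 (−0.89 ± 0.63, adjusted p = 0.324) and Satb1 (−0.13 ± 0.11, adjusted p = 0.426) did not pass. The member median was 2.27, against 0.01 over all genes. The Thy1 value was 8.47 without HET E15 replicate 1 and 6.09 without HET E15 replicate 2. Col25a1 lost its call without HET P3 replicate 2 (0.47, adjusted p = 0.321), without HET E15 replicate 1 (0.90, adjusted p = 0.153) and without HET E15 replicate 2 (1.16, adjusted p = 0.0904). It was also lost in a fit of these groups alone (adjusted p = 0.131) and in a fit of all 18 libraries (adjusted p = 0.109). Beside Spp1 17 of 18 microglia markers rose, and beside Jam2 9 of 12 photoreceptor and 10 of 14 endothelial and mural markers rose. Of the stress genes 8 of 14 and of the amacrine markers 7 of 12 were higher, and 2 amacrine markers were lower. Of 14 progenitor and Müller glia markers 6 were lower and 1 was higher. Of 18 pan-RGC markers, 8 were lower at P3, the other way from Thy1, 2 were higher and 8 did not pass.

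In Brn3b KO RGC 5 members were higher at P3 as well, beside 14.4% of all genes higher and 11.1% lower (25.4% in all). Thy1 was 98.3-fold higher (6.62 ± 0.65, adjusted p = 0.000191), Spp1 14.8-fold (3.89 ± 0.39, adjusted p = 0.000205), Jam2 4.18-fold (2.06 ± 0.32, adjusted p = 0.00165), Mmp17 2.40-fold (1.26 ± 0.40, adjusted p = 0.0438) and Satb1 1.28-fold (0.36 ± 0.11, adjusted p = 0.0412). Bnc2 (2.2 ± 0.75, adjusted p = 0.0570) and Col25a1 (0.78 ± 0.33, adjusted p = 0.117) did not pass. The Thy1 value was 7.71 without KO E15 replicate 1 and 5.98 without KO E15 replicate 2. The Satb1 call was lost on leaving out any 1 of the 4 libraries (0.30 to 0.39, adjusted p from 0.0983 to 0.205) and without a low-count filter (adjusted p = 0.0781). Bnc2 was called with DESeq2 (adjusted p = 0.00555) and without a low-count filter (adjusted p = 0.0294). The Mmp17 call was lost without KO P3 replicate 2 (0.61, adjusted p = 0.341), KO E15 replicate 1 (1.34, adjusted p = 0.140) or KO E15 replicate 2 (1.17, adjusted p = 0.187), and in a fit of only the compared groups (1.26, adjusted p = 0.0789). Beside Spp1 8 of 18 microglia markers rose, and beside Jam2 10 of 12 photoreceptor and 9 of 14 endothelial and mural markers rose. Of 18 pan-RGC markers in KO RGC 10 were lower at P3, the other way from Thy1, and 2 were higher.

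Thy1 was higher at P3 in SN as well. There, 3 members were higher at P3 and none was lower, beside 15.6% and 17.5% of all genes (33.1% in all): Thy1 by 19.3-fold (4.27 ± 0.67, adjusted p = 0.000381), Mmp17 by 2.73-fold (1.45 ± 0.39, adjusted p = 0.0111) and Jam2 by 2.00-fold (1.00 ± 0.28, adjusted p = 0.0139). Jam2 had an adjusted p of 0.106 without the Brn3b KO E15 SN library, and Mmp17 one of 0.133 without the Brn3b HET E15 SN library. Without that library the Thy1 value was 5.12. Bnc2 passed without the Brn3a KO P3 SN library (1.75, adjusted p = 0.0445), and DESeq2 called Spp1 (adjusted p = 0.0266). In SN 9 of 12 photoreceptor, 6 of 14 endothelial and mural and 4 of 18 microglia markers were higher at P3. In these lists 1 photoreceptor and 1 endothelial or mural marker were lower. Of 18 pan-RGC markers in SN 14 were lower at P3, the other way from Thy1, and 1 was higher. Whether the rise differed between RGC and SN was not tested.

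Other type markers moved in both directions with age. In Brn3b HET RGC 9 of 29 were higher and 6 lower at P3, and in Brn3b KO RGC 10 and 5. Tbr1 was higher by 6.14 ± 0.47 in HET and 3.30 ± 0.43 in KO, Neurod2 by 4.82 ± 0.43 and 4.75 ± 0.42, and Calb2 by 4.17 ± 0.50 and 4.43 ± 0.52. The forkhead factor Foxp1 was lower in KO RGC by −1.41 ± 0.19 on the log2 scale. Among relatives and partners 6 of 23 were higher and 3 lower in HET, including F11r (1.5 ± 0.23), Timp2 (1.60 ± 0.15) and Itgb3 (2.84 ± 0.31) on the higher side.

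**Figure D3:**
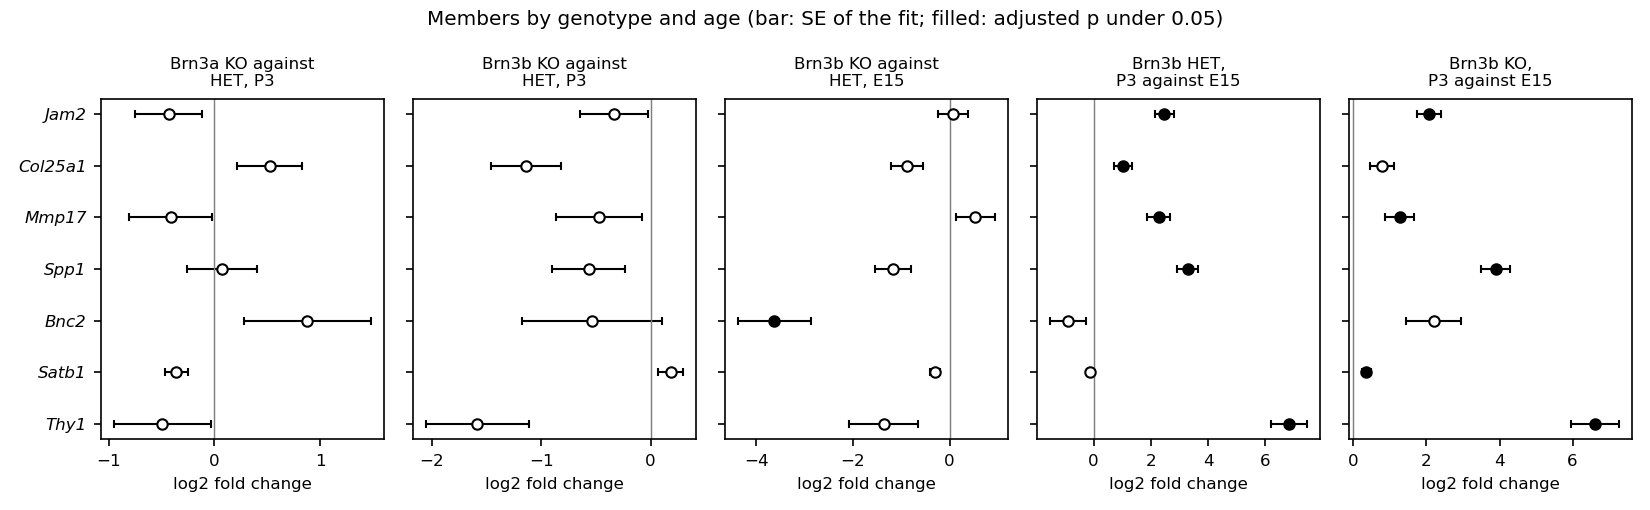
Log2 fold change (horizontal axis, bars are the SE of the fit, scales differ between panels) of each marker in KO against HET RGC and in P3 against E15 RGC; filled points have an adjusted p under 0.05. In the 3 comparisons of KO with HET the only filled point is Bnc2 for Brn3b at E15, and in both comparisons of age Jam2, Mmp17, Spp1 and Thy1 are filled and above 0.

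The genes nearest to each member in pattern were found by Pearson correlation of log2(CPM + 1) over the 18 retinal libraries, which share fractions and ages, among 10257 other genes (10258 for Mmp17 and Bnc2) with a mean of at least 10 CPM. For Jam2 they were Mak (0.970), Ppef2 (0.970) and Cdhr1 (0.967), all of them known from photoreceptors. For Spp1 they were the myeloid genes Clec7a (0.990), Ccl6 (0.989) and Lyz2 (0.986), of which Lyz2 is also on the microglia list. Thy1 had Chrna6 (0.996), a nicotinic receptor subunit, Fam3c (0.992) and the vesicle fusion factor Nsf (0.991). Col25a1 was nearest to Mdga2 (0.965), Colgalt1 (0.956), which adds sugars to collagen, and Nlgn3 (0.945). For Bnc2 the genes were Ano3 (0.962), Apbb2 (0.947) and Gpr21 (0.941), and for Mmp17 Megf11 (0.938), Abcg1 (0.889) and Sez6 (0.888). Satb1 had no close neighbour: the nearest were Pde3a (0.821), Pigq (0.786) and Mia3 (0.781). Among the members the pair most alike was Col25a1 and Bnc2 (0.919), while Jam2 had 0.04 with Col25a1 and −0.10 with Bnc2. Thy1 and the pan-RGC sum had an r of 0.0568 over all ages: the sum was 8385 to 14172 CPM in Brn3b HET RGC at E15, where Thy1 was under 3 CPM. Within P3 the group medians of the sum fell in the same order as the Thy1 means. They were 10709 CPM in Brn3a HET, 9941 in Brn3a KO, 5709 in Brn3b HET, 2239 in Brn3b KO RGC and 1365 in SN. No r was computed for P3 alone.

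**Figure D4:**
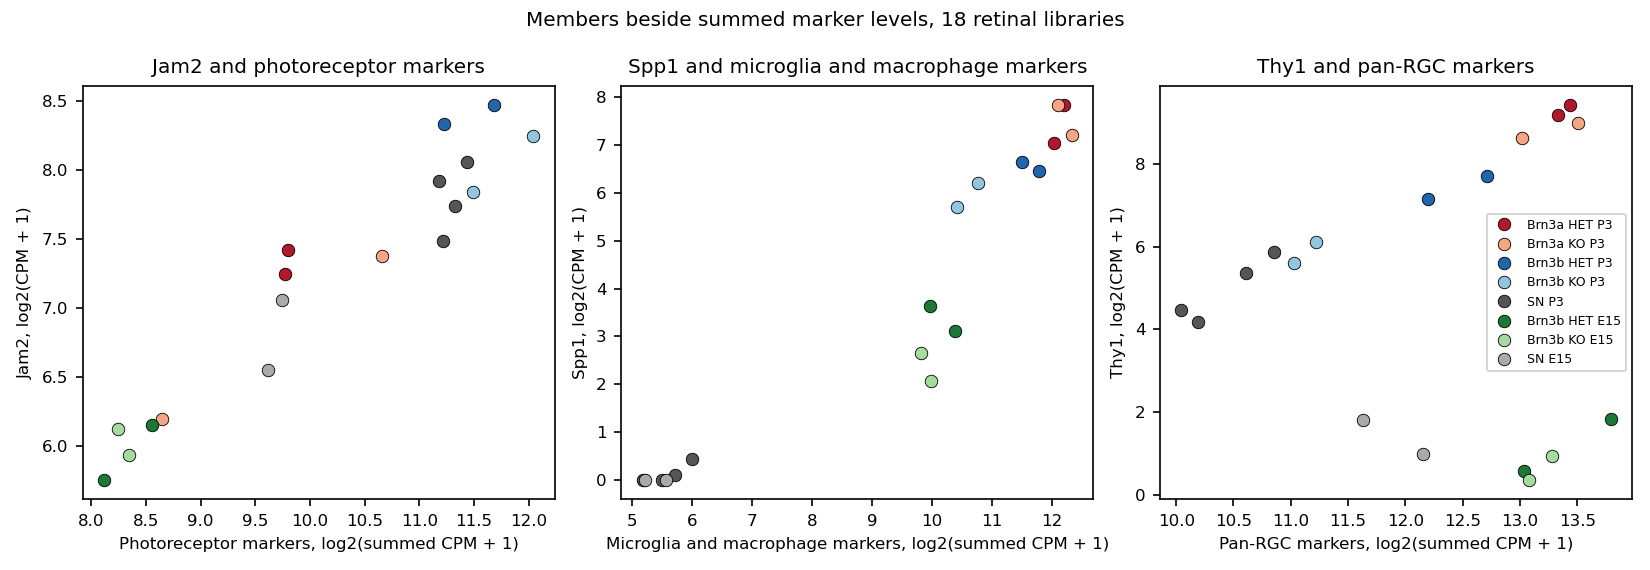
Jam2 beside the sum of 12 photoreceptor genes, Spp1 beside the sum of 18 microglia and macrophage genes, and Thy1 beside the sum of 18 pan-RGC genes, each as log2(CPM + 1) with 1 point per library (18 points, coloured by group). Jam2 and Spp1 rise with their sums across groups, whereas the E15 libraries hold high pan-RGC sums at Thy1 values near 0.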

How the data were processed

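RNA was measured in 18 retinal and 9 brain libraries. The authors deposited estimated counts for 88198 transcripts, not normalized, with transcript length and GC percent per the file headers. The submitters' processing notes name Trimmomatic 0.32, Bowtie2 2.2.1, eXpress 1.3.1 and GRCm38.p3. Libraries were stranded and read at 76 bases in the retina, per the labels' protocols, and whether counting used strand is not given in the sources used here. Estimated counts were summed per gene and rounded, and 27 symbols listed as dates were restored by Ensembl ID. Groups follow the titles.

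edgeR 4.0.16 (R 4.3.3) was used with TMM scaling, filterByExpr (minimum count 10) and quasi-likelihood F-tests, with p adjusted over all genes by the Benjamini-Hochberg method. The 12 RGC libraries were fitted together for genotype, locus and age (16673 genes, 6 residual degrees of freedom), and the 18 retinal libraries for SN comparisons (16954 genes, 10 residual degrees of freedom). The biological coefficient of variation was 26.3% and 27.8%. Each SE was taken as the absolute log2 fold change over the root of F. CPM used TMM-scaled sizes of the 18-library fit, and TPM the deposited lengths. The deposited GC percent entered no fit.

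The 7 members are named in every comparison, up to 4 genes of each list with the smallest p, the 3 nearest genes in pattern, and transcripts with at least 10% of a member's reads. The members and the 12 gene lists were chosen with earlier results of these data known. The fits were tested on data simulated with a common spread for all genes. For Brn3b KO against HET RGC at P3, 0% of 1.5-fold, 14.3% of 2-fold and 95.9% of 4-fold changes were called. For Brn3b HET RGC against SN at P3 these shares were 2.17%, 25% and 93.9%. A change of 2-fold or less would thus often be missed. Alternatives were DESeq2 1.42.0, RLE size factors, no low-count filter, other sets of libraries in the fit, a replicate block, and leaving out each library. Bounds against 0 use 3 counts and cover counting error only.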

Additional observations from a re-analysis of the deposited data

Results flagged for a closer look

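The difference between the Brn3b HET and Brn3a HET fractions at P3, which is the difference of their contrasts with the same SN libraries, passed the test for Col25a1 (−1.94), Bnc2 (−2.95) and Satb1 (−0.525, all log2 fold changes). As given above, these calls depend on single libraries. With 1 library left out the values ran from −2.52 to −1.57 (Col25a1), −3.93 to −2.40 (Bnc2) and −0.64 to −0.46 (Satb1). With the replicate block Bnc2 (adjusted p = 0.0562 in edgeR) and Satb1 (adjusted p = 0.0510) did not pass.

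The 9 libraries of wild-type P3 brain entered none of the comparisons and were read on another instrument, so their levels are not set against those of the retina. Their median was 219 CPM for Thy1, 94.0 for Col25a1, 68.8 for Jam2, 47.6 for Satb1, 36.2 for Mmp17, 7.52 for Spp1 and 0.862 for Bnc2, and these were listed because the retinal comparisons leave them out. Bnc2 differed most between regions: it held 13.3 to 20.7 CPM in the 3 superior colliculus libraries, 0 to 0.295 CPM in the 3 of the lateral geniculate nucleus, 0.0999 CPM in the single pretectal library and 2.40 and 0.862 CPM in the remaining brain. Col25a1 stood at 130 to 149 CPM in superior colliculus, 68.7 to 131 CPM in lateral geniculate nucleus and 46.9 and 28.0 CPM in the remaining brain. Satb1 was highest in the remaining brain, with 133 and 122 CPM against 26.0 to 29.8 CPM in lateral geniculate nucleus. These regional differences were not tested.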

How the results depend on the processing

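Of 979 log2 fold changes of members recomputed under other settings or with 1 library left out, 869 kept their sign and their side of the threshold, and none that passed under either setting changed sign. Sign changes under other settings were those of Mmp17 in Brn3a HET against SN (0.0078 with DESeq2 and with RLE size factors) and Satb1 in Brn3b HET against SN at E15 (0.0017 with DESeq2, 0.0018 with RLE factors, 0.0014 with the replicate block, 0.039 without a filter and 0.040 with only the compared groups). With a library left out, against SN the ranges that crossed 0 were −0.19 to 0.11 (Mmp17, Brn3a), −0.24 to 0.77 (Mmp17, Brn3b P3), −0.23 to 1.32 (Bnc2, Brn3b P3), −0.13 to 0.17 (Satb1, E15), −1.82 to 0.64 (Thy1, E15) and −0.82 to 0.079 (Mmp17, E15). In KO against HET they were −1.12 to 0.022 (Jam2) and −0.28 to 0.50 (Spp1) for Brn3a, −1.12 to 0.11 (Mmp17) and −1.11 to 0.42 (Bnc2) for Brn3b at P3, and −0.092 to 0.30 (Jam2) and −2.46 to 0.30 (Thy1) at E15. Between loci they were −0.18 to 0.81 (Mmp17, HET), −0.29 to 0.81 (Mmp17, KO) and −0.032 to 0.058 (Satb1, KO), and between ages −1.84 to 0.43 (Bnc2, HET). For interactions they were −0.71 to 0.29 (Col25a1) and −1.84 to 0.87 (Thy1) between ages, and −0.36 to 0.79 (Jam2) and −0.68 to 0.54 (Mmp17) between loci.

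Counts of members called moved with the settings, and the cause was not tested. With only the compared groups 1 was called in Brn3b HET against SN at E15, 0 in Brn3b KO at E15 and 6 in Brn3b HET against Brn3a HET. DESeq2 called 1 in Brn3b KO at P3, 2 at E15, 6 between the HET fractions, and 1 and 2 in the interactions. Without a low-count filter 1 was called in Brn3b KO at P3 and 5 between the HET fractions. With a library left out the counts ran from 4 to 4 (Brn3a HET), 2 to 4 (Brn3b HET, P3) and 1 to 2 (E15) against SN, 0 to 0 (Brn3a), 0 to 1 (Brn3b, P3) and 0 to 1 (E15) for KO, 0 to 1 (HET) and 4 to 5 (KO) between loci, 4 to 5 (HET), 3 to 4 (KO) and 2 to 4 (SN) between ages, and 0 to 0 in interactions. A lone remaining library is assumed to vary like the other groups. Spp1 was not tested in SN with only the compared groups.

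Replicate numbers showed little pairing: over 15 pairs of groups the correlation of replicate deviations ran from −0.116 to 0.171. The 1 above 0.1 was that of Brn3b HET with Brn3b KO at E15, and whether these libraries were paired is not known. With the replicate block 0 members were called in Brn3b KO at E15 (Bnc2 adjusted p = 0.0672 in edgeR), 1 between the HET fractions and 4 in Brn3b KO P3 against E15, and 10 of the 13 counts did not move. Low counts limit Thy1 and Bnc2 at E15 and Spp1 in SN.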
